A study of Ogataea parapolymorpha with 2 samples.

Results

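The genes described here carry annotations of sulfate assimilation and methionine synthesis in the thermotolerant methylotrophic yeast Ogataea parapolymorpha, which the labels call Hansenula polymorpha. They were chosen by annotation, as the rows of the raw count table that hold any of 8 clusters of orthologous groups (COGs) for sulfate activation and reduction, homocysteine synthesis, methionine synthase and methylenetetrahydrofolate reductase. The rule used no measured value and found 10 genes of 5408 features. Of the 8 groups 7 had at least 1 gene. COG2873, the group of the O-acetylhomoserine sulfhydrylase that makes homocysteine from sulfide, had 0 rows, so that this step is not described. The table gives locus tags with no symbols, and each gene is called here by its group and locus tag.

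RNA came from strain DL-1 of genotype leu-, cultured in YPD, a rich medium with glucose, at 37 °C until the optical density was 1.0, and then divided. One part was harvested without caffeine and gave the untreated library, and the other was given 20 mM caffeine for 2 h and gave the caffeine-treated library. Both groups share the strain, the leu- allele, the medium and the temperature, and each holds 1 library. The labels describe no untreated part kept in culture for the same 2 h, so that caffeine and time in culture cannot be told apart.

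Yeasts take up sulfate, activate it with ATP to adenosine phosphosulfate (APS) and then to phosphoadenosine phosphosulfate (PAPS), and reduce this to sulfite and to sulfide. Sulfide is joined to an activated form of homoserine to give homocysteine, which methionine synthase methylates with a folate-bound methyl group. In Saccharomyces cerevisiae most of these genes form the MET regulon, which is shut down when methionine or S-adenosylmethionine is plentiful, and rich medium supplies preformed amino acids. Caffeine is a purine analogue that inhibits the TOR kinase in that yeast, and the series uses it in a study of cell wall integrity signalling.

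Counted reads came to 19184978 without and 17789838 with caffeine. The comparison took in 4861 of 5325 protein-coding genes, those whose reads, scaled to equal library totals (CPM), reached 10 in either library, and all 10 members were among them. Differences are log2 folds of caffeine-treated over untreated counts scaled by the trimmed mean of M values (TMM). The 95% interval given with each is exact for counting error and takes in no other error. With 1 library per group no test between conditions could be made, the spread between cultures is unknown, and a fold of 2 was used as a size rule. Reads give a gene's share of the library, so that a change in RNA per cell could not be measured. Levels that are compared between genes are the deposited RPKM values, reads scaled to gene length and library total.

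Methionine synthase had the highest level and the highest log2 fold of the members, and the other genes differed in both directions. Its gene was 1.94-fold higher in the caffeine-treated library, a log2 fold of 0.96 (0.94 to 0.98), just short of the 2-fold rule. The other 9 genes, added together, went from 29369 to 32477 reads, a log2 fold of 0.036 (0.013 to 0.059), or 0.25 with library totals. That sum joins members from -0.80 to 0.64 and is weighted by the abundant ones. None of the 10 members was 2-fold higher and none 2-fold lower under TMM scaling. Over all compared genes 7.12% passed 2-fold upward and 5.27% downward, so that a list of 10 genes with no such member is near the background. When library totals were used in place of TMM, every log2 fold was larger by 0.22. Methionine synthase then passed the rule at 2.26-fold, and 1 of the 10 members was 2-fold higher and 0 lower, against 11.6% and 3.60% of all compared genes.

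**Figure D1:**
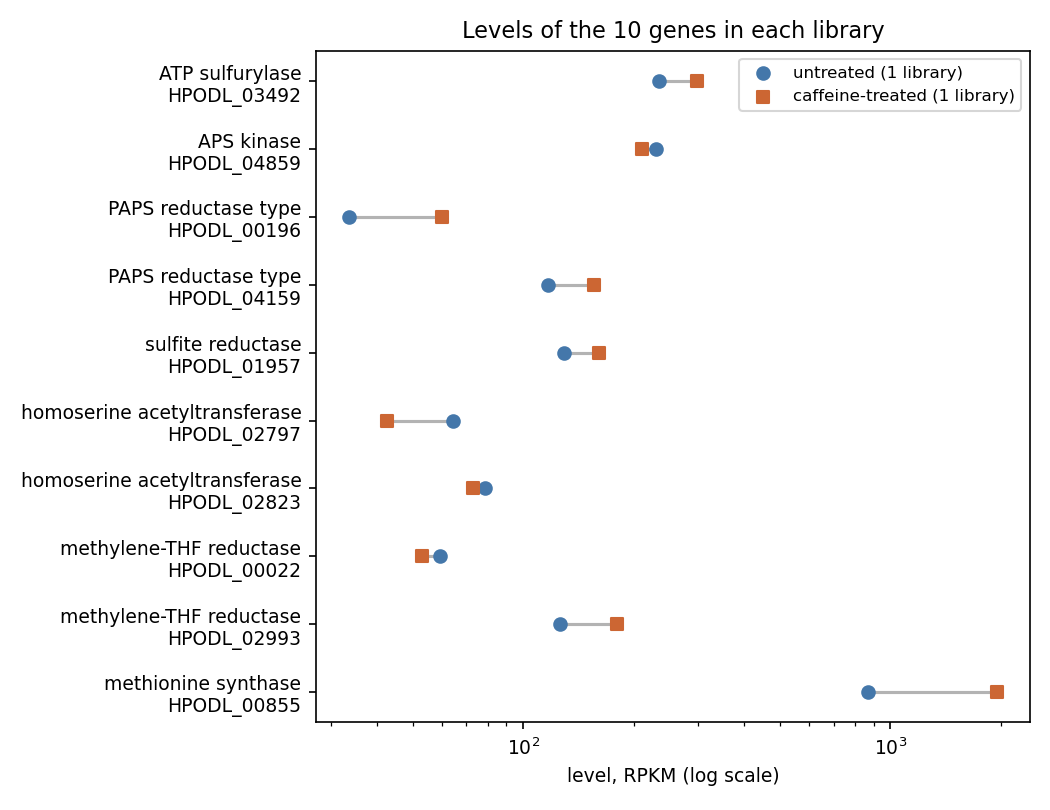
Level of each of the 10 genes in the 2 libraries, in RPKM on a logarithmic axis, in the order of the pathway; circles are the untreated library and squares the caffeine-treated library. Methionine synthase is the highest gene in both libraries, at 867 and 1954 RPKM, and the other genes lie between 33.5 and 297 RPKM.

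Of the members 6 were above 0 and 4 below 0 under TMM, and also with library totals, which add the same constant to every gene. Of all compared genes 51.1% were above 0 under TMM and 68.1% with library totals. The median log2 fold of the 10 genes was 0.11, beside 0.011 for all compared genes. Single members ran from -0.80 to 0.96, a width of 1.76 on the log2 scale. At a fold of 1.5 in place of 2, 2 members were higher and 1 was lower. The background at that fold was 16.5% higher and 13.0% lower, so that the members' shares did not stand far from those of all genes. With 5 CPM added to each library, 1 of the 2 higher members, HPODL_00196, fell short of 1.5-fold.

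**Figure D2:**
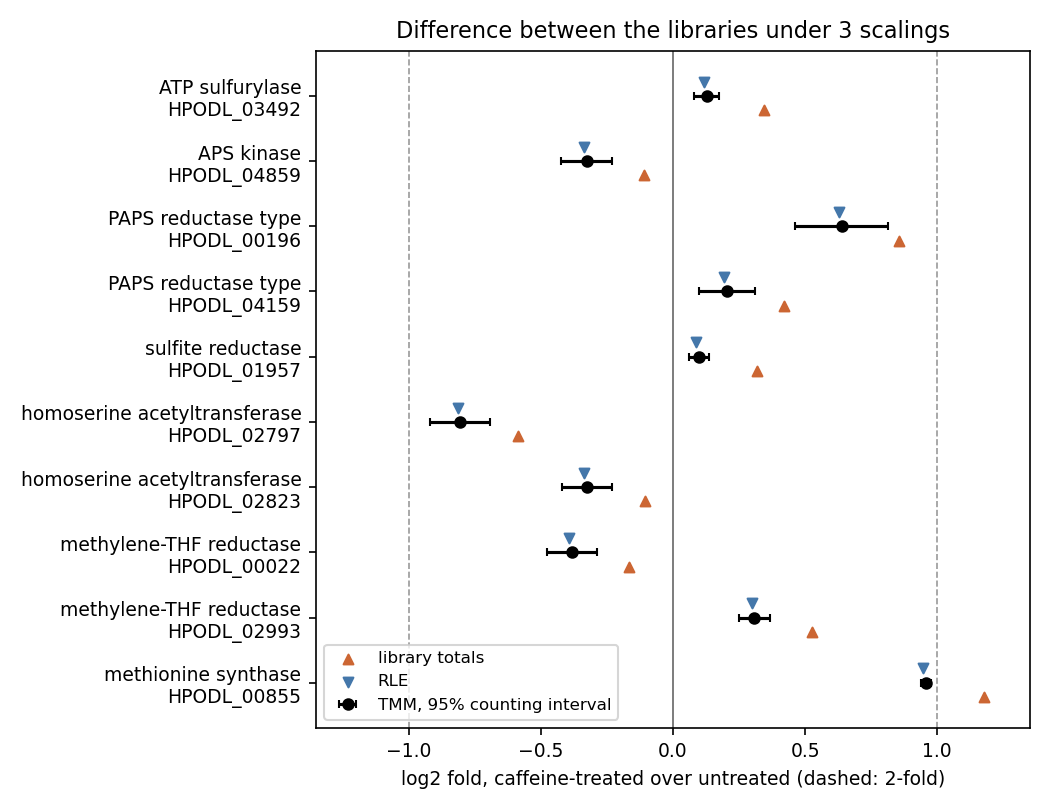
Log2 fold of caffeine-treated over untreated for each gene, with 1 library per group; black points and bars are the TMM value and its 95% counting interval, upward triangles the value with library totals and downward triangles the value with relative log expression scaling. Methionine synthase lies at 0.96 under TMM and at 1.18 with library totals, and it is the only member that crosses a dashed 2-fold line under any of the 3 scalings.

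ATP sulfurylase and APS kinase carry out the pair of activation steps. The ATP sulfurylase gene (COG2046, HPODL_03492, 1644 bases), whose product joins sulfate to ATP, had 6601 untreated and 7782 caffeine-treated reads. Its log2 fold was 0.13 (0.081 to 0.18). The APS kinase gene (COG0529, HPODL_04859, 603 bases), whose product adds the second phosphate to form PAPS, had 1877 and 1615 reads. Its log2 fold was -0.33 (-0.42 to -0.23). The 2 intervals did not overlap, and the genes of these successive steps lay on opposite sides of 0. In the untreated library their levels were 235 and 230 RPKM, a ratio of 1.02 (0.97 to 1.08) that lay within counting error. In the caffeine-treated library the levels were 297 and 211 RPKM, a ratio of 1.41 (1.34 to 1.49). The deposited RPKM values correspond to gene lengths cut by 177 bases (untreated) and 172 bases (caffeine-treated) from those listed, which raises a short gene such as that of APS kinase. With the listed lengths the same ratios were 1.29 and 1.77. The near equality in the untreated library was thus seen only with the deposited RPKM.

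Reduction of PAPS to sulfite is the work of PAPS reductase, whose group (COG0175) also takes in FAD synthetase in S. cerevisiae. In all 2 genes carry this group, and the table does not say which of them reduces PAPS. HPODL_04159, of 753 bases, had 1296 and 1610 reads, a log2 fold of 0.20 (0.097 to 0.31). HPODL_00196, of 840 bases, had the fewest reads of all members, 426 and 715. Its log2 fold was 0.64 (0.46 to 0.81), and adding 5 CPM to each library made it 0.55. Both genes were above 0, and their intervals did not overlap. HPODL_00196 took 24.7% (22.7 to 26.8) of the pair's reads in the untreated and 30.8% (28.9 to 32.7) in the caffeine-treated library, a share that no scaling of the libraries can move. Its level went from 33.5 to 60.2 RPKM, while that of HPODL_04159 went from 117 to 156 RPKM.

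Sulfite reductase takes sulfite to sulfide with a siroheme-bearing subunit and a flavoprotein subunit. The gene that carries the hemoprotein group (COG0155, HPODL_01957) is the longest member at 4104 bases and is annotated with 4 COGs, of which COG0674 is one. It had 9736 and 11242 reads, a log2 fold of 0.098 (0.059 to 0.14). This was the smallest difference of the 10 members under TMM, but with library totals it was 0.32 and 3 other members were closer to 0. Its level was 129 RPKM untreated and 161 RPKM caffeine-treated. A gene outside the rule, HPODL_04237, carries the flavoprotein group COG0369 and, like the hemoprotein gene, COG0674. It had 3514 and 3228 reads, a log2 fold of -0.23 (-0.30 to -0.16). The hemoprotein gene stood 2.05 times higher than that gene in RPKM in the untreated library and 2.58 times higher in the caffeine-treated library. Added together, the 5 genes of the sulfate activation and reduction groups went from 19936 to 22964 reads, a log2 fold of 0.095 (0.067 to 0.12). That sum takes in both COG0175 genes, although it is not known which of them reduces PAPS.

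The carbon skeleton comes from homoserine, which homoserine O-acetyltransferase activates. Both genes of its group (COG2021) were lower in the caffeine-treated library. HPODL_02797, of 1500 bases, had 1632 untreated and 1008 caffeine-treated reads. Its log2 fold of -0.80 (-0.92 to -0.69) was the lowest of the members and corresponds to a level 1.75-fold lower. Of all compared genes 367, or 7.55%, had a lower log2 fold. HPODL_02823, of 1443 bases, had 1919 and 1653 reads, a log2 fold of -0.32 (-0.42 to -0.23). With library totals these values were -0.59 and -0.11. HPODL_02797 took 46.0% (44.3 to 47.6) of the pair's reads in the untreated and 37.9% (36.0 to 39.8) in the caffeine-treated library. The group can hold acyltransferases for substrates other than homoserine, and which of the 2 acts on homoserine is not given in the tables. The genes lie on 1 chromosome with 30 genes between them.

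Methylenetetrahydrofolate reductase makes the methyl donor of methionine synthase, and S. cerevisiae has 2 such genes, MET12 and MET13. Here too 2 genes carry the group (COG0685), and they lay on opposite sides of 0. HPODL_02993, of 1797 bases, had 3906 and 5217 reads, a log2 fold of 0.31 (0.25 to 0.37). HPODL_00022, of 1908 bases, had 1976 and 1635 reads, a log2 fold of -0.38 (-0.48 to -0.29). The level of HPODL_02993 went from 126 to 181 RPKM and that of HPODL_00022 from 59.5 to 53.0 RPKM. The more abundant gene was thus 2.11 times higher than the other in the untreated library and 3.41 times higher in the caffeine-treated library. HPODL_00022 took 33.6% (32.4 to 34.8) of the pair's reads without and 23.9% (22.9 to 24.9) with caffeine. Summed, the pair had a log2 fold of 0.11 (0.061 to 0.16).

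Methionine synthase of the cobalamin-independent type, which is the only type in yeasts such as S. cerevisiae, ends the pathway by methylating homocysteine. Its single gene (COG0620, HPODL_00855, 2298 bases) had 35276 untreated and 73872 caffeine-treated reads. Its level went from 867 to 1954 RPKM, which moved it from place 230 to place 131 among all protein-coding genes. Of the 4861 compared genes 378, or 7.78%, had a higher log2 fold.

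**Figure D3:**
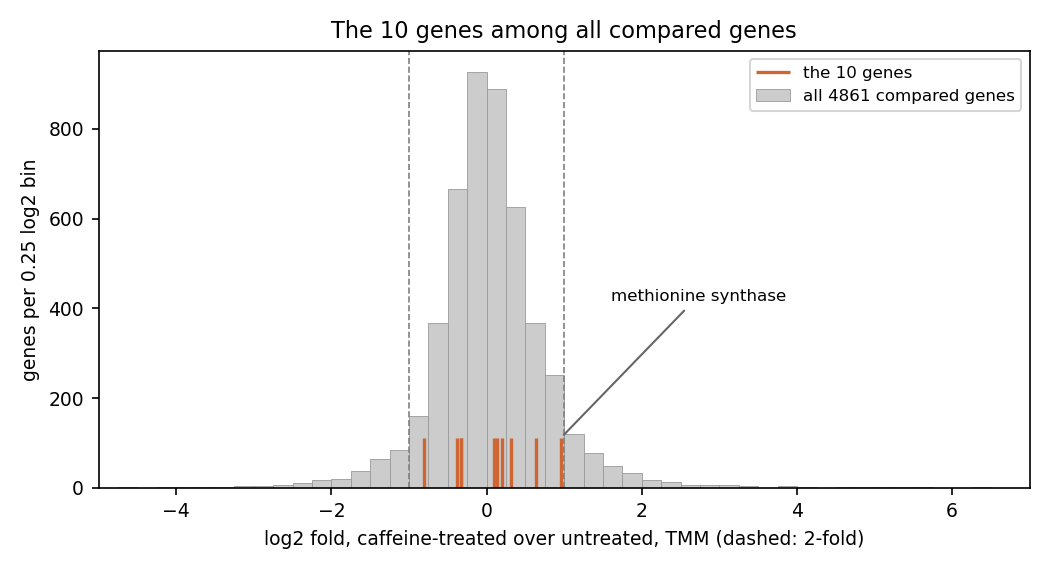
Number of genes in each bin of log2 fold (caffeine-treated over untreated, TMM scaling, 1 library per group) for all 4861 compared genes in grey, with the 10 genes as short upright lines and 2-fold as dashed lines. The members run from -0.80 to 0.96 and all lie between the dashed lines.

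Methionine synthase also made up most of the reads of the 10 genes. It supplied 54.6% (54.2 to 55.0) of the members' reads in the untreated and 69.5% (69.2 to 69.7) in the caffeine-treated library. Per length its share of the summed RPKM was 44.7% and 61.3%. Relative to ATP sulfurylase, the next highest gene, it stood 3.70 times higher in RPKM in the untreated and 6.57 times higher in the caffeine-treated library. All members together took 0.337% of the untreated and 0.598% of the caffeine-treated reads, and without methionine synthase 0.153% and 0.183%. As a sum the 10 genes had a log2 fold of 0.61 (0.59 to 0.62), beside the 0.036 of the 9 other genes.

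**Figure D4:**
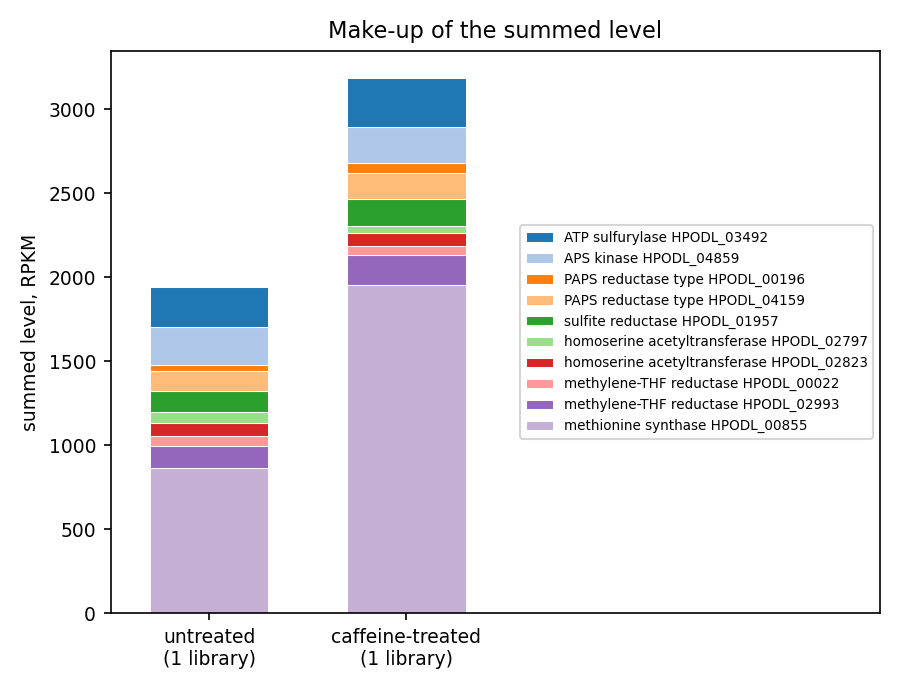
Summed level of the 10 genes in each library, in RPKM, with 1 block per gene and 1 library per bar. The sum goes from 1939 to 3188 RPKM, and the block of methionine synthase from 867 to 1954 RPKM.

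The order of the levels was largely kept between the libraries. Methionine synthase, ATP sulfurylase and APS kinase held the first 3 places in RPKM in both. In the untreated library sulfite reductase at 129 RPKM and HPODL_02993 at 126 RPKM followed, apart by a ratio of 1.03 (0.99 to 1.07), which lay within counting error. In the caffeine-treated library HPODL_02993 stood above sulfite reductase by a ratio of 1.12 (1.09 to 1.16), and sulfite reductase and HPODL_04159 were then within counting error of each other at 1.03 (0.98 to 1.09). The other neighbours in either order, apart from the activation pair in the untreated library, differed by more than counting error. At the low end HPODL_00196 left the last place for place 8, and HPODL_02797, at 42.7 RPKM, took the last. With listed gene lengths in place of those behind the RPKM values, APS kinase stood in place 5 in the caffeine-treated library. By those lengths HPODL_00196 stood in place 9 there, behind HPODL_00022 in place 8.

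The members were scattered over the genome, and none lay next to another. Of their 20 nearest genes 17 were compared. Of these 1 passed 2-fold, beside 7.12% of all compared genes upward and 5.27% downward. That gene, HPODL_05074, lies 17 bases after the methylenetetrahydrofolate reductase gene HPODL_00022 and had a log2 fold of -1.12 (-1.34 to -0.89). The gene 24 bases after that of APS kinase, HPODL_04860, stood at 0.98 (0.83 to 1.13), against -0.33 for APS kinase itself. No member overlapped a neighbour in the listed positions, and 7 of the 20 gaps were shorter than 100 bases. The strand column holds a plus sign for every feature, so that it gives no orientation. Whether counting used strand is not given in the sources used here, and reads of transcripts that run across a short gap could have been shared.

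The 6 lists of genes next to the pathway, built from 30 further COGs of which 27 had at least 1 gene, held 45 genes, and 44 were compared. Of these 2 passed 2-fold upward and 5 downward, beside the background of 7.12% and 5.27%. Their median log2 fold was -0.13, which became 0.093 with library totals. That scaling put 3 genes past 2-fold upward and 2 downward, beside its own background of 11.6% and 3.60% of all compared genes.

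Genes listed beside the sulfate branch differed in both directions. Of 12 genes of sulfate entry and side enzymes 2 were at least 2-fold lower and 0 higher, beside 5.27% and 7.12% of all compared genes. The median of the 12 genes was -0.31. The 3 sulfate permease genes (COG0659), which import sulfate, differed among themselves. HPODL_04102 went from 1408 to 550 reads, a log2 fold of -1.47 (-1.61 to -1.32), while HPODL_00518 stood at -0.40 (-0.50 to -0.31) and HPODL_02639 at 0.54 (0.41 to 0.66). The group also holds other anion transporters, and the tables do not give the substrate. A thioredoxin reductase type gene (COG0492), HPODL_03801, was the other member past 2-fold, at -1.06 (-1.21 to -0.92), a call that ended with library totals at -0.84. The more abundant gene of that group, HPODL_04814, stood at 0.16 (0.11 to 0.21). HPODL_01899, which carries both groups of siroheme synthesis (COG1648 and COG0007), the cofactor of sulfite reductase, stood at 0.61 (0.50 to 0.73). The gene with the most reads in this list was HPODL_03619 of the diflavin reductase group (COG0369), at -0.56 (-0.59 to -0.52). That group holds the sulfite reductase flavoprotein and other diflavin reductases, and which of them this gene encodes is not given.

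The route from aspartate to homoserine, which supplies the carbon skeleton, and its branch to threonine had a median of -0.74 over 5 genes. Under TMM 4 of the 5 genes were below 0, and with library totals the median was -0.52. Of all 4861 compared genes 2379 were below 0 under TMM. Aspartate-semialdehyde dehydrogenase (COG0136, HPODL_04611) went from 7417 to 3932 reads, a log2 fold of -1.02 (-1.08 to -0.97), which became -0.81 with library totals and so lay inside 2-fold. Threonine synthase (COG0498, HPODL_02954), the last step of the threonine branch, stood at -0.93 (-0.97 to -0.89), or -0.71 with library totals. It had the most reads of the list over both libraries together, 14260 and 8085, but not in the caffeine-treated library alone. Homoserine dehydrogenase (COG0460, HPODL_02574), which makes homoserine for both branches, stood at 0.0026 (-0.040 to 0.046), with 8392 and 9068 reads. With library totals its log2 fold was 0.22.

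Among 7 genes of transsulfuration and cysteine synthesis, which link homocysteine and cysteine, 1 was at least 2-fold lower and 0 higher. Of all compared genes 5.27% were 2-fold lower and 7.12% higher under TMM. The median of the 7 genes was -0.16, which became 0.054 with library totals. The lower gene, HPODL_05065 of the cysteine synthase and cystathionine beta-synthase type (COG0031), went from 4963 to 1499 reads. Its log2 fold was -1.84 (-1.92 to -1.75), or -1.62 with library totals. The gene with the most reads, HPODL_01631 of the cystathionine lyase and synthase group (COG0626), stood at -0.56 (-0.63 to -0.50).

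In the methyl cycle downstream of methionine both abundant genes were above 0 and inside 2-fold. S-adenosylhomocysteine hydrolase (COG0499, HPODL_02927), which returns homocysteine to methionine synthase, had 15213 and 23803 reads, a log2 fold of 0.54 (0.51 to 0.57). S-adenosylmethionine synthetase (COG0192, HPODL_00414), which uses methionine, stood at 0.22 (0.19 to 0.25). The third gene of this list, a homocysteine methyltransferase (COG2040, HPODL_00793), stood at -0.50 (-0.63 to -0.37).

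The 8 genes of one-carbon folate metabolism, from which methylenetetrahydrofolate reductase draws its substrate, had a median of -0.48. In each direction 1 gene passed 2-fold, beside 7.12% of all compared genes upward and 5.27% downward. The higher gene was an aminomethyltransferase of the glycine cleavage system (COG0404, HPODL_01302), which passes a carbon of glycine to tetrahydrofolate. It went from 865 to 4417 reads, a log2 fold of 2.24 (2.14 to 2.35). The lower gene was a methylenetetrahydrofolate dehydrogenase (COG0190, HPODL_04125) at -1.12 (-1.20 to -1.04), or -0.90 with library totals, inside 2-fold. The gene with the most reads, HPODL_02628, which carries the dehydrogenase and formyltetrahydrofolate synthetase groups (COG0190 and COG2759), stood at -0.22 (-0.25 to -0.19).

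Methionine salvage, which recycles the sulfur left over from polyamine synthesis, and polyamine genes had a median of 0.23 over 9 compared genes. Of these 1 passed 2-fold upward and 0 downward, beside 7.12% and 5.27% of all compared genes. With library totals the median was 0.45 and 2 genes passed upward, as did 11.6% of all compared genes. The gene past 2-fold under both, HPODL_02043, went from 1348 to 7588 reads, a log2 fold of 2.38 (2.30 to 2.47). It belongs to COG0235, a group of class II aldolases that holds the salvage dehydratase and other sugar-phosphate enzymes, and the tables do not say which it is. Another gene of the same group, HPODL_00704, stood at -0.016 (-0.12 to 0.086). The third, HPODL_05059, had 28 and 85 reads and was not compared. HPODL_03524 of the purine nucleoside and methylthioadenosine phosphorylase group (COG0005) stood at 0.99 (0.82 to 1.16), and with library totals at 1.21, past 2-fold.

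**Figure D5:**
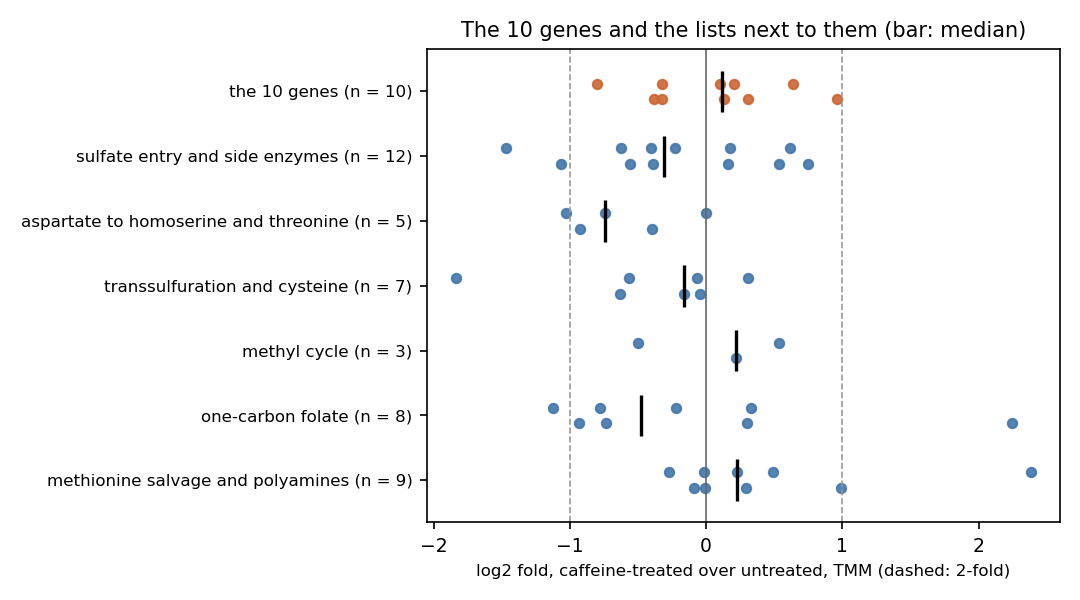
Log2 fold of caffeine-treated over untreated (TMM scaling, 1 library per group) for the 10 genes in orange and for the compared genes of 6 neighbouring lists in blue; upright bars are medians and dashed lines 2-fold. The medians run from -0.74 for the route from aspartate to 0.23 for methionine salvage and polyamines, and the 10 genes have a median of 0.11.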

How the data were processed

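The 2 RNA-seq libraries, 1 per group, were made with a stranded mRNA kit from hot-phenol RNA and read as pairs of 100 bases, per the labels' protocols. The aligner was Bowtie2, per the submitters' processing notes. No version, counting tool, genome build or annotation is given in the sources used here. The authors deposited raw counts per gene, RPKM values (named so in the deposited workbook) and 2 tables of scaled counts, 1 by TMM and 1 by relative log expression (RLE). The deposited values of the scaled tables, a signal, equalled the counts times 1 constant per library within 0.0051.

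TMM scaling of the raw counts was done here (edgeR 4.0.16, R 4.3.3), to effective totals of 17788292 untreated and 19186645 caffeine-treated reads. Protein-coding genes at 10 or more CPM of the unscaled library total in either library were kept, and a count of 0 was set to 3 counts. The measure was the log2 ratio. For its interval, the exact Clopper-Pearson limits on the share of a gene's reads found in the caffeine-treated library were written as a ratio; shares within a pair have the same kind of limits. Without molecular identifiers PCR copies count as separate reads, and the limits cover counting error only. edgeR was used for scaling, and no test was run with 1 library per group. The calculation was tested on simulated data. A RefSeq gene table (assembly Hansenula_2) matched all 5408 locus tags and gave gene type and gene order.

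Every gene of the rule is named, and of each neighbouring list every compared gene past 2-fold and the gene with the most reads; any other gene named was added with its value known. The members and lists were chosen with earlier results of these data known. COG functions come from general knowledge. With 2 libraries no search for genes of like pattern was made. Alternatives were library totals, RLE, a minimum of 1 CPM or none, 5 CPM added, the deposited RPKM, and folds of 1.5 and 4. No sequences are printed.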

Additional observations from a re-analysis of the deposited data

How the results depend on the processing

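The count of members at least 2-fold higher went from 0 under TMM to 1 with library totals and with the deposited RPKM. A rule of 1.5-fold gave 2 members higher and 1 lower. With 5 CPM added to each library that rule gave 1 higher and 1 lower, beside 681 and 550 of all 4861 compared genes. The members' median log2 fold of 0.11 became 0.33 with library totals and with RPKM. For the 6 neighbouring lists, the 5 genes at least 2-fold lower became 2 with library totals and with RPKM, 12 at 1.5-fold and 0 at 4-fold. The 2 higher became 5 at 1.5-fold. Their median of -0.13 turned to 0.093 with library totals and 0.084 with RPKM. Over all compared genes the 346 higher became 564 with library totals, 553 with RPKM, 804 at 1.5-fold and 67 at 4-fold. The 256 lower became 175 with library totals, 178 with RPKM, 630 at 1.5-fold and 50 at 4-fold. The shift of 0.22 comes from the scaling itself, since it adds 1 constant to every log2 fold. RLE moved each log2 fold by -0.010. Signs are no test of stability here, since the scalings move all genes alike and RPKM follows library totals. No paired analysis was possible because each group holds 1 library. For the same reason leaving out a library was not possible, and how far a second culture would differ is unknown.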

Other observations

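The glycine cleavage system was looked at after the value of its aminomethyltransferase was seen. Only its groups COG0403, COG0404, COG0509 and COG1003 were looked up, and other components of the system were not. The 3 genes that carry these groups all stood past 2-fold upward after caffeine, the 2 others with lower values close to the rule. Over all compared genes 7.12% did so under TMM and 11.6% with library totals, and the gene that prompted the look is 1 of the 3. The glycine dehydrogenase gene (COG0403 and COG1003, HPODL_01296) went from 5689 to 12648 reads, a log2 fold of 1.04 (1.00 to 1.09). The H protein gene (COG0509, HPODL_00286), which carries the lipoyl arm, went from 1921 to 4251 reads, also 1.04 (0.96 to 1.12). The aminomethyltransferase gene HPODL_01302 stood at 2.24. Both serine hydroxymethyltransferase genes (COG0112), which also load tetrahydrofolate with a one-carbon unit, were lower, with log2 folds of -0.93 (-0.99 to -0.87) for HPODL_00834 and -0.74 (-0.78 to -0.70) for HPODL_04290, or -0.71 and -0.52 with library totals.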
